A study of Mus musculus with 9 samples.

Results

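The expression of 10 genes that mark macrophages and dendritic cells was followed through 9 kidney RNA libraries, 4 from wild-type mice and 5 from Bmal1 -/- mice, all on the C57BL/6 strain. They are Csf1r, Adgre1, Cd68, C1qa, C1qb, C1qc, Lyz2, Itgam, Mrc1 and Ptprc, taken by symbol from tables of 23282 gene symbols. All 10 were present, and all 10 were abundant enough to be tested. Bmal1, listed under its symbol Arntl, is the clock transcription factor that the knockout targets. The labels do not say how the allele was made, in which cells it was lost, which part of the kidney was taken, or the hour, sex or age at sampling. They also do not state that each library came from a separate mouse, and p-values therefore reflect library-to-library spread, which may be technical.

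Kidney macrophages sit between the tubules, arise from embryonic precursors and from blood monocytes, and depend on the receptor tyrosine kinase encoded by Csf1r. This receptor has a pair of ligands, CSF1 and IL-34, and IL-34 is made by tubule cells among others. Macrophages and dendritic cells take up debris, present antigen on MHC class II and, in the case of macrophages, secrete C1q, the recognition part of the first complement complex. Adgre1 encodes an adhesion G protein-coupled receptor, Cd68 a lysosomal membrane glycoprotein, Lyz2 lysozyme, Itgam the integrin CD11b, Mrc1 the mannose receptor CD206 and Ptprc the CD45 phosphatase found on nearly all leukocytes.

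Deposited values are log2(x + 1), where x, by its values, is a number of reads scaled to similar totals, with sums of 11765219 to 13486444 per library. Arntl itself had values of 6.68, 6.26, 7.06 and 6.76 in the wild types and, in the knockouts, 5.95, 5.65, 5.99, 5.80 and 5.86. Its level fell by 0.84 log2 units (SE 0.21, adjusted p = 0.0112 by limma), a call lost without wild type 3 (adjusted p = 0.0552) and with the Rn45s level (0.0526) or the globin level (0.0869) as covariate. A 3′ tag outside the deleted part would not check the labels. Proximal tubule genes, which define the tissue, summed to an x of 637042 to 840318 in wild type and 473730 to 494850 in knockout. Most of that sum was 1 gene, Kap, which read 18.82 to 19.41 in wild type and 18.34 to 18.54 in knockout. Kap did not pass (-0.67, SE 0.23, limma adjusted p = 0.0604), so the sum does not describe the list as a whole. Ribosomal precursor RNA (Rn45s) held 5.07% to 11.3% of reads in wild type and 6.83% to 14.4% in knockout, and globins 0.619% to 1.54% and 0.897% to 3.56% (exact permutation adjusted p = 0.175 for each, two-sided, n = 4 and 5). Wild type 2 and knockout 4 were the highest of their genotype in both shares. Of 13481 genes tested, 831 rose and 1106 fell in knockout (limma, adjusted p under 0.05), so that 42.9% of calls were increases. That share was 50.5% after quantile normalization, 58.1% with upper-quartile scaling, 56.8% with scaling to the library total and 64.7% when that total left out Rn45s.

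One of the 10 markers, Csf1r, was lower in knockout, and the other 9 did not pass the test. Over all genes 14.4% passed, of which the decreases made 8.20% and the increases 6.16%, so 1 of 10 is near the background share. These shares are also the background for the counts of every other list below. The median difference of the 10 genes was -0.03 on the log2 scale, beside 0.0002 over all 13481 genes, with 5 differences above 0 and 5 below. Genotypes did not overlap for 1 of the 10, lower in knockout, against 8.46% of all genes for that direction and 14.3% for either. Added over the 10 genes, x was 1678 to 2064 in wild type and 1441 to 1988 in knockout, and without Csf1r it was 862 to 1331 and 892 to 1408. In RNA of bulk tissue, fewer cells of a type and less RNA per cell cannot be told apart.

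**Figure D1:**
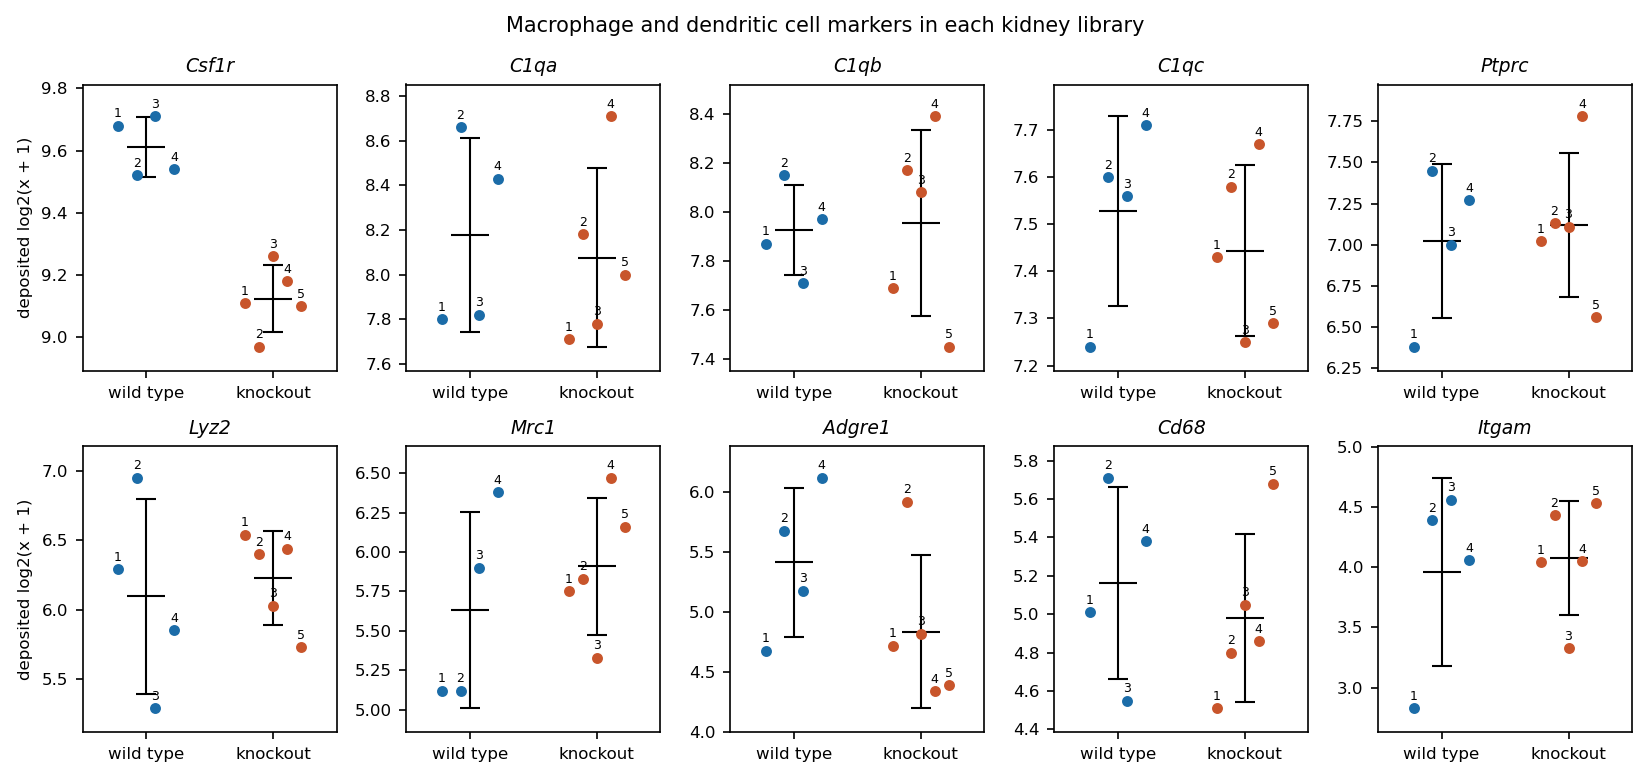
Deposited log2(x + 1) values (y axis, a separate range for each gene) of the 10 markers in 4 wild-type and 5 knockout kidney libraries (x axis). Each numbered point is 1 library and the bar is mean ± SD; the genotypes separate for Csf1r and overlap in the other 9 panels.

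Csf1r (ENSMUSG00000024621.16, chromosome 18, 61100598 to 61132149, + strand, GRCm38) was also the most abundant of the 10. Its values were 9.68, 9.52, 9.71 and 9.54 in the wild types and, in the knockouts, 9.11, 8.97, 9.26, 9.18 and 9.10. All 5 knockouts lay below all 4 wild types, and the spread within each genotype was narrow, with means of 9.61 ± 0.09 (SD, n = 4) and 9.13 ± 0.11 (SD, n = 5). The difference was -0.48 on the log2 scale (SE 0.11, 95% interval -0.71 to -0.26, limma adjusted p = 0.00436), which is 28.5% lower. Over 22 alternative settings it ranged from -0.53 to -0.38 with adjusted p of 0.00377 to 0.0235.

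The 3′ end of Csf1r is shared with another gene. Exons of Hmgxb3, which encodes an HMG-box protein and lies on the opposite strand, overlap 873 bases of Csf1r exon from 61131277 to 61132149. That stretch is 3′ UTR of Csf1r, beyond its last coding base at 61130477, and it reaches the annotated end of the gene, where 3′ tags fall. The strand setting of the counting is not given in the sources used here, so reads of the overlapping genes cannot be told apart. Hmgxb3 had values of 7.40, 7.39, 7.78 and 7.93 in the wild types and, in the knockouts, 6.92, 7.22, 7.28, 7.62 and 7.42, with overlapping genotypes and a difference of -0.33 (SE 0.18, 95% interval -0.70 to 0.04, limma adjusted p = 0.238). Back-transformed, mean x was 781 and 559 for Csf1r and 199 and 158 for Hmgxb3, in wild type and knockout. Taking the x counted for Hmgxb3 off that of Csf1r in each library left 649, 566, 615 and 501 in the wild types and, in the knockouts, 432, 354, 456, 383 and 379. The knockouts were again all below the wild types, with a mean 31.2% lower. This subtraction was chosen after the data were seen. How reads of the shared stretch were assigned is unknown, so it cannot show how much of the Csf1r value came from Hmgxb3.

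A ligand of the same receptor showed a larger decrease. Il34 (ENSMUSG00000031750.15, chromosome 8, 110741829 to 110805924, - strand) had values of 9.31, 9.11, 9.11 and 9.22 in the wild types and, in the knockouts, 6.48, 5.80, 6.67, 6.68 and 6.70. Every knockout lay more than 2 log2 units below every wild type, and knockout 2 was the lowest. The difference was -2.72 (SE 0.18, 95% interval -3.10 to -2.35, limma adjusted p = 8.35e-09), that is 84.9% lower, and it ranged from -2.81 to -2.56 over 22 alternatives. Csf1, the other ligand (chromosome 3, 107741048 to 107760469, - strand), was named after its values were seen. It read 5.91, 7.05, 6.43 and 6.15 in the wild types and, in the knockouts, 6.17, 6.85, 5.99, 6.75 and 6.37. These ranges overlapped throughout, with a difference of 0.04 (SE 0.25, 95% interval -0.49 to 0.57, limma adjusted p = 0.940). Il34 exons share 22 and 75 bases with the antisense transcripts Gm15894 and Gm15895, the nearer of them 13800 bases from the 3′ end.

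**Figure D2:**
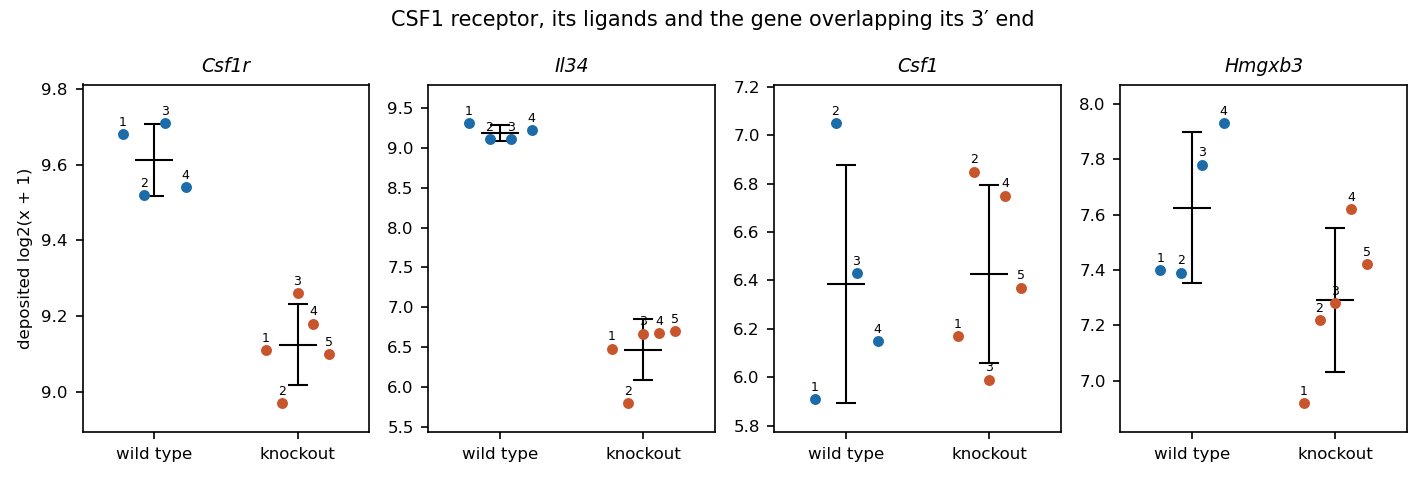
Deposited log2(x + 1) values (y axis, a separate range for each gene) of Csf1r, its ligands Il34 and Csf1, and Hmgxb3, whose exons overlap the 3′ end of Csf1r. Numbered points are libraries and bars are mean ± SD; Csf1r and Il34 separate by genotype, Csf1 and Hmgxb3 overlap.

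Some transcription factors of the myeloid lineage rose. Of 12 genes on the list of CSF1 receptor ligands and myeloid factors, all tested, 4 rose and 1, Il34, fell, with a median of 0.42. Over all genes tested 6.16% rose and 8.20% fell. Cebpb (0.79, SE 0.18, limma adjusted p = 0.00567), Klf4 (0.68, SE 0.16) and Cebpa (0.54, SE 0.16) rose; these factors also act in epithelial and other cells. Batf3, needed for a class of dendritic cells and named after its value was seen, rose by 1.80 (SE 0.58, adjusted p = 0.0444) from low levels of 1.13 to 4.12 in wild type. Spi1, the gene of PU.1, the factor that directs macrophage fate, read 5.33 to 6.14 in wild type and 5.19 to 6.52 in knockout, a difference of 0.20 (SE 0.31, adjusted p = 0.724), and was likewise named afterwards. Without wild type 4 or knockout 2 or 5 the Cebpa call was lost (adjusted p 0.0756 to 0.105), as it was with globins as covariate (0.0991). The Batf3 call was lost when wild type 2 or 3, or knockout 1, 2, 3 or 5, was left out (0.0555 to 0.110), and its difference without wild type 2 was 1.10. With globins as covariate it was 2.71 (adjusted p = 0.00261).

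The 3 chains of C1q are encoded side by side on chromosome 4, in 18675 bases from 136880129 to 136898803, all on the - strand. C1qb (136880129 to 136886187), C1qc (136889804 to 136893065) and C1qa (136895917 to 136898803) encode the B, C and A chains, which assemble together into each C1q molecule. The promoter window of C1qc is shown because, among the members whose windows were searched, it held the letters of both a myeloid and a clock-related motif. Windows from the RefSeq table for GRCm38.p6 were searched for 7 of the 10 genes. The 250 bases before the start of C1qc are chr4:136892915-136893164 on the - strand. The GENCODE record of C1qc begins upstream of this RefSeq start, so part of the window lies inside the gene as placed above. Capitals mark, in order, GAGGAAGT (the core bound by PU.1, here as its reverse complement) and TAGGTCA (the ROR element, likewise reversed), which do not overlap.
C1qc: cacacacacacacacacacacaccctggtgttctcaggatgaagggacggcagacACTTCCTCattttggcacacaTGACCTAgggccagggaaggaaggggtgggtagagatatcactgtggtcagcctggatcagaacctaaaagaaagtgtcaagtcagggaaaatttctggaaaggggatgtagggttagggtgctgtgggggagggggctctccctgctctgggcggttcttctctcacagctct

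Searched on both strands, GAGGAAGT was present in 3.2% and TAGGTCA in 2.61% of all 32851 promoter windows. The E-box CACGTG, through which Bmal1 and Clock bind, was in 7.15% of windows. It was in none of the 8 windows searched for the 7 markers, which do not include Csf1r. Matches are descriptions of these letters and not evidence of binding.

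None of the 3 C1q genes passed the test between genotypes, and their libraries overlapped. C1qa read 7.80, 8.66, 7.82 and 8.43 in the wild types and, in the knockouts, 7.71, 8.18, 7.78, 8.71 and 8.0. Wild type 2 and knockout 4 were the highest of their genotype, and the ranges overlapped almost fully. C1qb read 7.87, 8.15, 7.71 and 7.97 in the wild types and, in the knockouts, 7.69, 8.17, 8.08, 8.39 and 7.45, again highest in wild type 2 and knockout 4. C1qc read 7.24, 7.60, 7.56 and 7.71 in the wild types and, in the knockouts, 7.43, 7.58, 7.25, 7.67 and 7.29. It had the smallest spread over the 9 libraries of the 10 markers, with an SD of 0.18. Differences were -0.10 for C1qa (95% interval -0.54 to 0.34), 0.03 for C1qb (-0.34 to 0.41) and -0.08 for C1qc (-0.41 to 0.24), with limma adjusted p of 0.804, 0.934 and 0.780. A change of 1 log2 unit lay outside each of these intervals. The libraries with the highest C1qa and C1qb were also those with the largest Rn45s and globin shares of their genotype, and with these levels as covariates the values moved. C1qa was at -0.41 with Rn45s (limma adjusted p = 0.15) and -0.47 with globins (0.124), and C1qb at -0.19 (0.526) and -0.15 (0.733).

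Partners of C1q gave 1 call. Of 8 genes on the list of C1 proteases, the C1 inhibitor and C1q receptors, 7 were tested, none rose and 1 fell, with a median of 0.13. Calreticulin Calr, an endoplasmic reticulum chaperone that also binds C1q at the cell surface, read 12.73 to 12.94 in wild type and 12.22 to 12.54 in knockout. It fell by 0.37 (SE 0.10, limma adjusted p = 0.0173), a call lost without wild type 3 (0.0557) or knockout 4 (0.0554), with Rn45s (0.0537) or globins (0.108) as covariate, and in 3 of 4 other scalings. Calr is made in every secretory cell, and the cells that gave its reads here were not determined.

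Ptprc, the leukocyte phosphatase CD45 (chromosome 1, 138062861 to 138175708, - strand), read 6.38, 7.45, 7.0 and 7.27 in the wild types and, in the knockouts, 7.02, 7.13, 7.11, 7.78 and 6.56. Wild type 1 was the lowest library and knockout 4 the highest, and the ranges of the genotypes overlapped over most of their length. The difference was 0.09 (SE 0.24, 95% interval -0.41 to 0.60, limma adjusted p = 0.849). Of 16 pan-leukocyte genes 14 were tested, 1 rose and none fell, with a median of 0.21. The gene that rose was Arhgdib, a regulator of small GTPases also present in endothelium (0.53, SE 0.17, adjusted p = 0.0474). Its call was lost when wild type 1, 3 or 4, or knockout 2, 3, 4 or 5, was left out (0.0750 to 0.132), and with Rn45s (0.34, adjusted p = 0.222) or globins (0.32, adjusted p = 0.327) as covariate. Markers of lymphocytes were sparse. Of 12 T cell genes 4 were abundant enough to be tested and none of these passed the test. T cell genes summed to an x of 76 to 128 in wild type and 84 to 135 in knockout. B cell genes summed to 16 to 38 and 11 to 68, with Pax5 at 0 in all 9 libraries.

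Adgre1 (chromosome 17, 57358691 to 57483527, + strand), an adhesion receptor used to stain macrophages, had the largest difference of the 10 in size and did not pass. It read 4.68, 5.68, 5.18 and 6.12 in the wild types and, in the knockouts, 4.72, 5.92, 4.82, 4.34 and 4.39. Knockouts 4 and 5 lay below all wild types, but knockout 2 was above 3 of 4. The difference was -0.58 (SE 0.37, 95% interval -1.36 to 0.20, limma adjusted p = 0.341), so neither no change nor a decrease by more than 1 log2 unit lay outside the interval. Its values were the most variable of the 10, with an SD of 0.67 over 9 libraries.

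Cd68 (chromosome 11, 69664213 to 69666153, - strand) read 5.01, 5.71, 4.55 and 5.38 in the wild types and, in the knockouts, 4.51, 4.80, 5.05, 4.86 and 5.68. The highest wild type and the highest knockout were nearly level, as were the lowest. The difference was -0.19 (SE 0.33, 95% interval -0.88 to 0.50, limma adjusted p = 0.764). Its promoter window is shown because it was the other searched marker window with a match to a clock-related motif. The 250 bases before the start are chr11:69666171-69666420 on the - strand (RefSeq, GRCm38.p6), with capitals for TTANGTAA, the D-box bound by Dbp, Tef and Hlf and present in 2.32% of all windows.
Cd68: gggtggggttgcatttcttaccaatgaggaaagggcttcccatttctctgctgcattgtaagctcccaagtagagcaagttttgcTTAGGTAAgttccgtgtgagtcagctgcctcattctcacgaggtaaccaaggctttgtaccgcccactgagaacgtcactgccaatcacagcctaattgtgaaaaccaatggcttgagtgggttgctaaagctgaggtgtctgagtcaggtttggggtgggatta

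Lysosomal proteins other than Cd68 changed in both directions. Of 15 on that list, all tested and Cd68 among them, 1 rose and 3 fell, with a median of -0.18. Psap, the precursor of the saposins, fell by 0.70 (SE 0.11, limma adjusted p = 0.000377), and Grn, progranulin, by 0.39 (SE 0.11). Hexa, a subunit of hexosaminidase, rose by 0.53 (SE 0.12). Grn did not pass without wild type 3 or knockout 1 or 2 (adjusted p 0.0569 to 0.0866) or in any of the 4 other scalings, nor with globins as covariate (0.0783). These proteins are made by tubule cells as well, and Psap had a mean of 13.95 against 5.06 for Cd68.

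Lyz2 (chromosome 10, 117277331 to 117282321, - strand), lysozyme of myeloid cells, read 6.29, 6.95, 5.29 and 5.85 in the wild types and, in the knockouts, 6.54, 6.40, 6.03, 6.44 and 5.73. The wild types spread over a wider range than the knockouts and enclosed them. The difference was 0.13 (SE 0.29, 95% interval -0.48 to 0.74, limma adjusted p = 0.821). Its close copy Lyz1 lies next to it and read 2.55 to 4.33 over the 9 libraries, and how reads shared by the copies were counted is not given in the sources used here.

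Itgam (chromosome 7, 128062640 to 128118491, + strand), the alpha chain CD11b that pairs with CD18, was the least abundant. It read 2.83, 4.39, 4.56 and 4.06 in the wild types and, in the knockouts, 4.04, 4.43, 3.33, 4.05 and 4.53, with wild type 1 the lowest and knockout 3 next. The difference was 0.12 (SE 0.45, 95% interval -0.84 to 1.07, limma adjusted p = 0.899), the widest interval of the 10. Itgam shares 3450 exon bases with Gm49368 on the same strand, up to 1645 bases from its 3′ end. Of 8 leukocyte integrin genes 7 were tested, 1 rose and none fell, with a median of 0.14. Itgb2, the beta chain CD18, was at 0.51 (SE 0.41, adjusted p = 0.459) and Itgax, the dendritic cell integrin CD11c, at -0.55 (SE 0.56, adjusted p = 0.569), both named after their values were seen. Itga4, which pairs with beta chains on lymphocytes and monocytes, rose by 1.16 (SE 0.32, adjusted p = 0.0216), from 4.08 to 5.94 in wild type and 5.83 to 6.41 in knockout. That call was lost without wild type 1, 2 or 3 or knockout 2 or 4, with adjusted p of up to 0.0587.

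Mrc1 (chromosome 2, 14229392 to 14332057, + strand), an endocytic receptor of tissue macrophages and some endothelium, read 5.12, 5.12, 5.90 and 6.38 in the wild types and, in the knockouts, 5.75, 5.83, 5.33, 6.47 and 6.16. The lowest values were in wild types 1 and 2 and the highest in knockout 4, with wild type 4 next. The difference was 0.27 (SE 0.30, 95% interval -0.37 to 0.91, limma adjusted p = 0.609). Of 8 mannose receptor family and lectin genes 5 were tested, Mrc1 among them, and none passed, with a median of 0.23. Pla2r1, the phospholipase A2 receptor, was at 0.67 (SE 0.25, adjusted p = 0.0817) and Mrc2 of fibroblasts at -0.55 (SE 0.27, adjusted p = 0.189). Pla2r1 passed without wild type 3 (0.0447) or knockout 1 (0.0382).

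**Figure D3:**
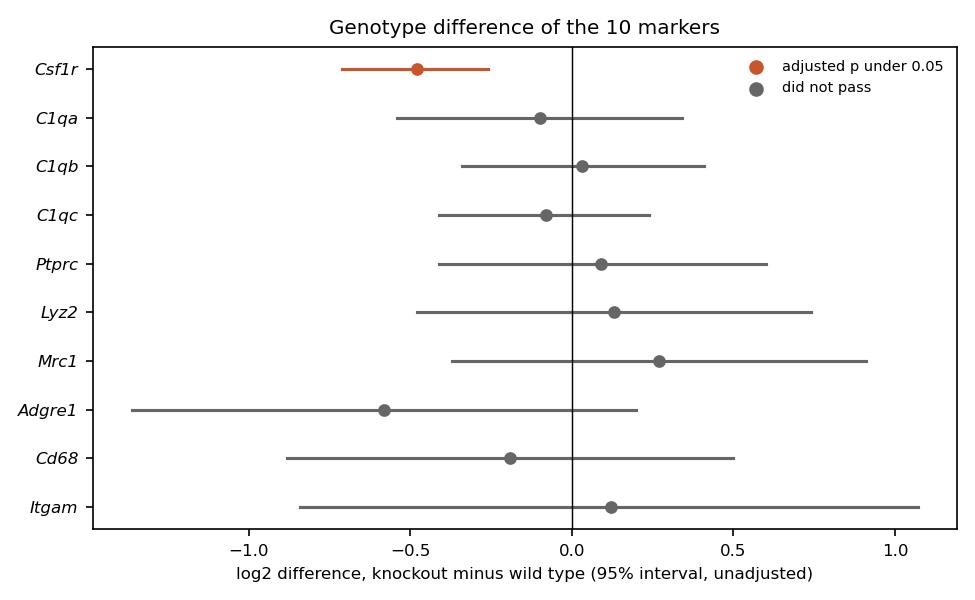
Difference in log2(x + 1) between knockout and wild type (x axis) for each of the 10 markers (y axis, most abundant at the top), with 95% intervals from limma that are not adjusted for multiple tests. The interval of Csf1r lies below 0, from -0.71 to -0.26, and the other 9 cross 0.

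The steps between neighbours in the order of levels differed in how often they held. A 3′ tag library gives about 1 read per transcript, so log2 levels of different genes can be set side by side without correction for length. Csf1r averaged 9.34, above C1qa (8.12) in all 9 libraries, with its overlap with Hmgxb3 as given above. C1qa exceeded C1qb (7.94) in 7 of 9, C1qb exceeded C1qc (7.48) in 9 of 9, and C1qc exceeded Ptprc (7.08) in 8 of 9. Ptprc was above Lyz2 (6.17) in all 9, while Lyz2 and Mrc1 (5.78) changed places, with Lyz2 higher in 5. Adgre1 (5.09) and Cd68 (5.06) were not separable, with Adgre1 higher in 4 of 9. Itgam (4.03) was below Cd68 in 8 of 9.

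The markers did not rise and fall as 1 block across libraries. Centred on each gene's own mean, the average of the 10 was lowest in wild type 1 (-0.32 on the log2 scale) and highest in wild type 2 (0.31) and wild type 4 (0.26). Knockout 4 was highest for 4 of the 10 markers and lowest for Adgre1, and wild type 1 was lowest for 3. Likeness was then measured as the root mean square difference between standardised values over the 9 libraries, ranked over the other 13480 genes. C1qc had Ptprc as its nearest marker at rank 88 (difference 0.66), and Ptprc had C1qc at rank 139. C1qa and C1qb also had Ptprc as their nearest marker, at ranks 135 and 140. The nearest marker to Csf1r was Adgre1 at rank 5125 (difference 1.26). These distances include the genotype difference, and Csf1r was the 1 marker whose genotypes did not overlap. Its distance from the other 9 is therefore not separate from its call.

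**Figure D4:**
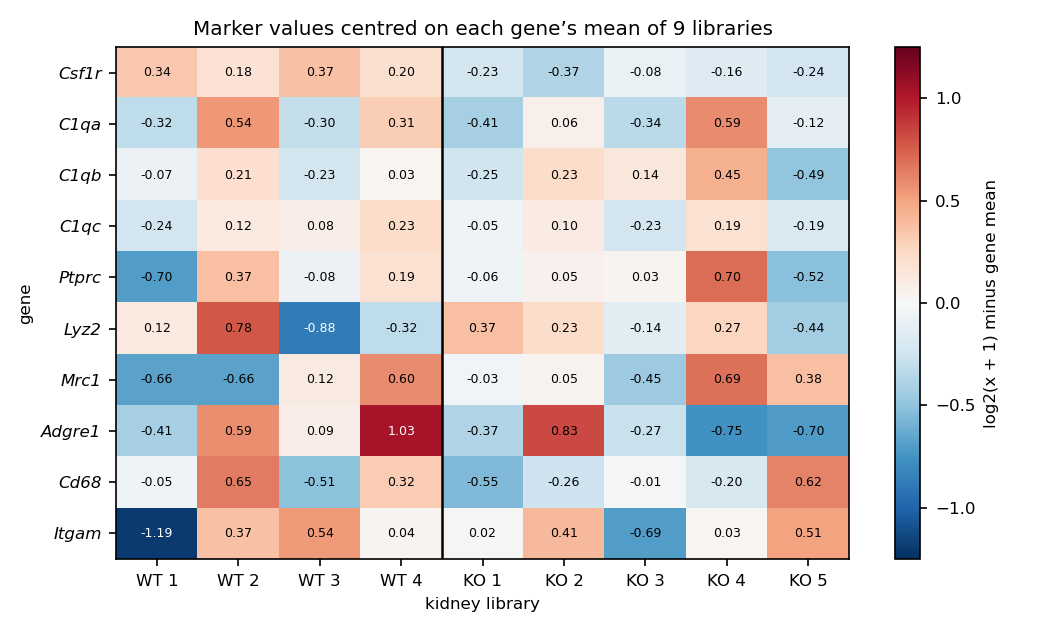
Deposited log2(x + 1) minus the mean of each gene over 9 libraries, for the 10 markers (rows, most abundant at the top) in wild-type (WT) and knockout (KO) libraries (columns). Csf1r is above its mean in all 4 wild types and below it in all 5 knockouts; the other rows mix signs within each genotype.

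The genes nearest to each marker by the same measure differed in kind. Nearest to C1qa were Fscn1 (0.37), the actin bundling protein fascin, Clec9a (0.39), a receptor of dendritic cells, and Gbp5 (0.39), an interferon-induced GTPase. Counts were then taken of 85 other tested genes from the myeloid, antigen presentation, integrin, lectin and pan-leukocyte lists, out of all 13480 other genes. Some of the 85, such as Il34, Pla2r1 and Mrc2, are also made outside leukocytes. Among the 100 nearest genes, C1qa had 10 of the 85 and C1qb had 7, whereas Csf1r had 2 and Cd68, C1qc, Lyz2 and Itgam had none. Among the 3 genes nearest to Csf1r were Plekha6 (0.20) and Mast2 (0.21), a kinase. Nearest to Mrc1 were Kitl (0.27), the ligand of Kit, Rfx7 (0.28) and Ptchd1 (0.28). The closest gene was Kif16b (0.41) for Adgre1, Pdcd10 (0.40) for Cd68, Tcf20 (0.30) for C1qb, Tmem47 (0.34) for C1qc, Cebpzos (0.36) for Lyz2 and Tmem119 (0.44), a marker of brain microglia, for Itgam. Nearest to Ptprc were Mef2c (0.30), a transcription factor, Atg7 (0.33), of autophagy, and Hlx (0.34), a homeobox gene. With 9 libraries and 13480 genes such distances are descriptions, and they include the genotype difference.

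Other macrophage genes gave 2 calls. Of 24 on that list 14 were tested, 2 rose and none fell, with a median of -0.08. Over all genes tested 14.4% passed, in either direction. Lgals3, galectin-3, made by macrophages and by injured or collecting duct epithelium, read 8.80, 8.62, 8.36 and 8.57 in the wild types and, in the knockouts, 9.52, 9.63, 9.34, 9.43 and 9.49. All knockouts were above all wild types, and it rose by 0.89 (SE 0.12, limma adjusted p = 4.14e-05). Pf4, platelet factor 4, known from megakaryocytes and some macrophages, rose by 0.92 (SE 0.25, adjusted p = 0.0178), a call lost without wild type 3 (0.0617) or knockout 4 (0.0536). It was also lost with Rn45s (0.74, adjusted p = 0.0849) or globins (0.58, adjusted p = 0.17) as covariate. Aif1, the macrophage protein IBA1, was at -0.19 (SE 0.23, adjusted p = 0.636), and the protease Ctss at -0.15 (SE 0.15, adjusted p = 0.568), both named after their values were seen. Vsig4 and Siglec1, markers of other tissue macrophages, were at 0 in all 9 libraries.

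Antigen presentation and Fc receptor genes had no call by limma. None of 8 tested MHC class II genes passed, with a median of 0.00 and differences from -0.43 to 0.23. Ciita, their transactivator, was at -0.43 (SE 0.36, adjusted p = 0.469) and H2-Eb1 at 0.15 (SE 0.15, adjusted p = 0.550). None of 8 Fc receptors and adaptors passed, with a median of 0.12. Hcst, the adaptor DAP10, was at 1.30 (SE 0.49, adjusted p = 0.0865) and passed without wild type 2 (0.0451) or knockout 1 (0.0443). With Rn45s as covariate Hcst was at 0.69 (0.384) and with globins at 0.63 (0.504). Fcgr2b, the inhibitory Fc receptor, also made by endothelium, was at -0.33 (SE 0.18, adjusted p = 0.235).

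Among dendritic cell genes 10 of 14 were tested, none rose and 1 fell, with a median of 0.19. Cadm1, an adhesion molecule of a class of dendritic cells and of many epithelia, read 9.88 to 10.32 in wild type and 8.52 to 9.24 in knockout, without overlap. It fell by 1.27 (SE 0.15, limma adjusted p = 1.01e-05).

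Of 12 monocyte genes 11 were tested, 3 rose and 1 fell, with a median of 0.44. Vcan, versican, made by monocytes and by stroma, rose by 2.54 (SE 0.39, limma adjusted p = 0.000216), from 2.90 to 3.83 in wild type and 5.18 to 7.03 in knockout. S100a4 rose by 0.99 (SE 0.21) and Ly6c2, the antigen of inflammatory monocytes, by 0.73 (SE 0.20, adjusted p = 0.0197), the latter lost without wild type 3 or knockout 2 or 4 (0.0525 to 0.0717). The Ly6c2 call was also lost with Rn45s (0.53, adjusted p = 0.102) or globins (0.52, adjusted p = 0.157) as covariate, and S100a4 was at 0.63 (0.0384) with globins. The cells that gave the reads of S100a4 and Ly6c2 were not determined. Ace, angiotensin-converting enzyme, found in some monocytes and abundant in the proximal tubule brush border, fell by 1.09 (SE 0.14).

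Among 13 neutrophil genes 4 were tested and none passed, with a median of 0.99 and differences from 0.78 to 1.12. Ngp, Camp, Elane and Mpo were at 0 in all 9 libraries. S100a8 read 5.27, 7.46, 4.43 and 4.59 in the wild types and, in the knockouts, 6.26, 6.99, 6.79, 7.85 and 4.91. S100a9 read 4.87, 7.75, 4.61 and 4.88 in the wild types and, in the knockouts, 6.13, 6.74, 6.5, 8.22 and 5.36. Both encode chains of calprotectin, and both were highest in wild type 2 and knockout 4 of their genotype. Differences were 1.12 (SE 0.55, limma adjusted p = 0.199) and 1.06 (SE 0.56, adjusted p = 0.237). With Rn45s as covariate they were 0.24 (0.787) and 0.07 (0.939), and with globins 0.28 (0.824) and 0.01 (0.99). Without wild type 2 they were 1.80 (adjusted p = 0.0117) and 1.80 (adjusted p = 0.00812).

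**Figure D5:**
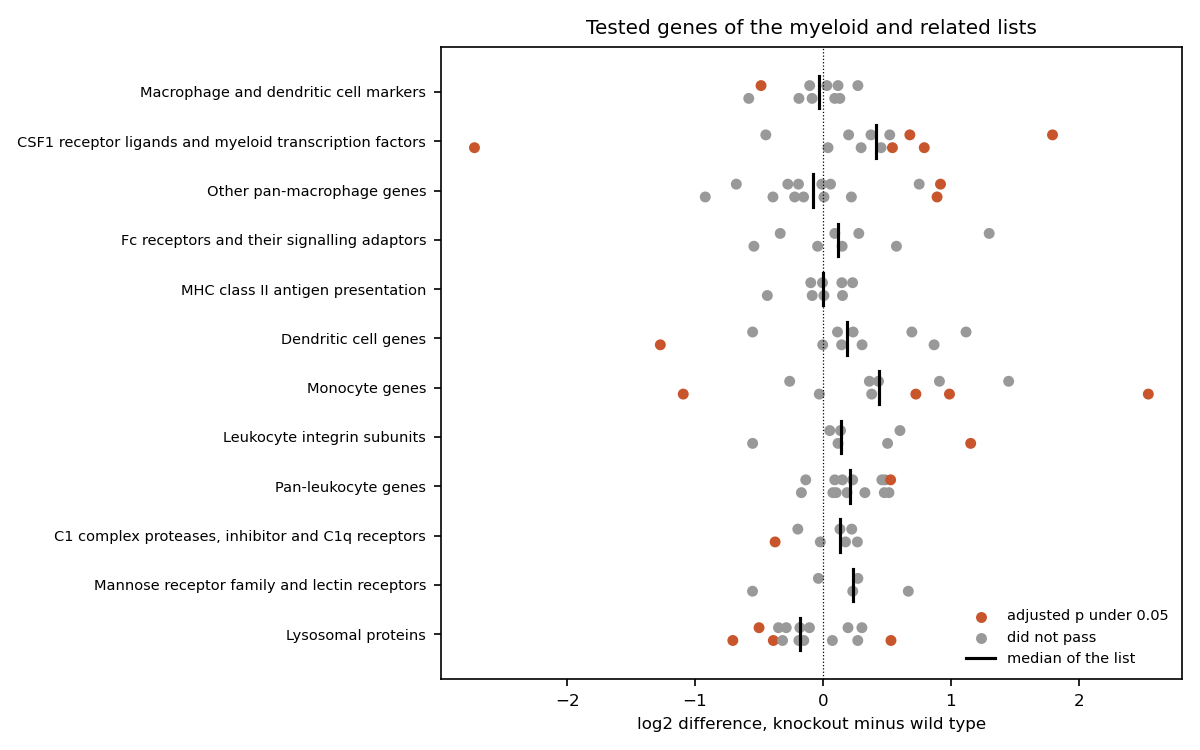
Difference in log2(x + 1) between knockout and wild type (x axis) for every tested gene of the marker list and 11 related lists (y axis); filled orange points passed limma at an adjusted p under 0.05 and black lines are list medians. The 10 markers lie between -0.58 and 0.27, and the point farthest to the left is Il34 at -2.72.

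Genes of other kidney cells moved in the same libraries. Of 15 endothelial genes 14 were tested and 5 rose (Pecam1, Tie1, Plvap, Eng and Ehd3), with a median of 0.41, and their summed x was 5400 to 7827 in wild type and 7333 to 12789 in knockout. Of 13 fibroblast, pericyte and smooth muscle genes, all tested, 3 rose (Pdgfra, Dcn and Rgs5), with a median of 0.49. Of 14 proximal tubule genes 5 fell (Slc22a6, Slc22a8, Slc13a3, Ggt1 and Slc27a2) and none rose, with a median of -0.50. Of 9 urothelial genes 8 were tested, 6 rose and none fell, with a median of 1.96 and a summed x of 511 to 618 in wild type and 1009 to 1848 in knockout. The part of these shifts in the values of Csf1r, Il34, Lgals3, Vcan, Cadm1 and Ace was not tested.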

How the data were processed

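Kidney RNA was extracted with Trizol and 500 ng entered QuantSeq 3′ libraries, per the labels' protocols. The deposited tables, 1 per library, hold log2(x + 1) of adjusted read counts, as read from their values. Bowtie2, bedtools and the build mm10 are listed in the submitters' processing notes. The sources used here do not give versions, annotation, strand setting or normalization, so the raw depth is unknown. Genes with x of at least 10 in at least 4 libraries were tested by limma (version 3.58.1, R version 4.3.3; moderated test with trend, genotype as the single term, two-sided, Benjamini-Hochberg over 13481 genes, threshold 0.05). Fold changes are differences of log2(x + 1) and understate those of low genes. The fit was checked on simulated data with known changes, and it recovered small folds only in part. Positions are from GENCODE M21 (GRCm38, the assembly of mm10). Library shares were compared by exact permutation over 126 splits. Named genes were the 10 markers and, per list, up to 4 that passed with the smallest adjusted p, or the 2 smallest where none passed; others are marked. A few genes that this rule names are not reported here. Genes of the endothelial, stromal, tubule and lymphocyte lists are summarised by counts. The members and lists were chosen with earlier results of these data known.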

Additional observations from a re-analysis of the deposited data

Results flagged for a closer look

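Among 44 named genes and 88 groups of 4 or 5 libraries, 5 groups held a library standing far from the others by Dixon's criterion, which chance gives in about 1 group of 20. None of the 5 was a group of the 10 markers. Il34 in knockout 2 was 5.80, below the 6.48 to 6.70 of the other knockouts and on the same side of all wild types. S100a9 in wild type 2 was 7.75 against 4.61 to 4.88 in the other wild types, the library whose removal brought S100a8 and S100a9 past the threshold. Batf3 in wild type 2 was 1.13 against 3.67 to 4.12. Fcgr2b in wild type 3 was 7.52 against 7.96 to 8.05. Calr in knockout 4 was 12.22 against 12.47 to 12.54.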

How the results depend on the processing

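Csf1r, and no other marker, passed with the deposited values and in each of 22 alternatives, although Adgre1, Cd68 and Itgam were not tested under a stricter filter on mean x. The number of changed genes was 1937, ranged from 1426 to 2277 with 1 library left out, and was 1209 with the globin level as covariate. Scaling to the total without Rn45s moved the median of all genes to 0.105. Of the 9 other markers 8, all but Adgre1, changed sign under some setting and passed under none. Without wild type 2 and knockout 4 together, Cd68 was 0.025, C1qb -0.001 and Mrc1 -0.038. Under the total without Rn45s, C1qa was 0.002 and C1qc 0.020, and under quantile normalization Itgam was -0.091 and Csf1 -0.057. With Rn45s as covariate, C1qb was -0.194, Lyz2 -0.079, Itgam -0.004, Ptprc -0.236, H2-Eb1 -0.062, Csf1 -0.225 and Spi1 -0.202. With globin as covariate the same 7 genes were at -0.147, -0.119, -0.055, -0.167, -0.070, -0.294 and -0.122. With 1 library left out, the range was -0.261 to 0.057 for C1qa, -0.077 to 0.158 for C1qb, -0.136 to 0.418 for Lyz2, -0.259 to 0.318 for Itgam, -0.122 to 0.233 for Ptprc, -0.117 to 0.261 for Csf1 and -0.324 to 0.011 for Aif1. The causes were not tested.

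Libraries 1 to 4 of each genotype share numbers, but deviations of same-numbered libraries correlated at 0.151, 0.000909, -0.00701 and 0.0407, so the numbers were not taken as pairs. A replicate block was fitted on libraries 1 to 4 of each genotype, and so without knockout 5. With it 1739 genes passed, and Csf1r was at -0.48 (limma adjusted p = 0.0121). Under that block Cebpa (0.0792), Arhgdib (0.0596) and Batf3 (0.107) did not pass, and S100a8 (0.0459) and Pla2r1 (0.0416) did. Without knockout 5 and with no block, Cebpa (0.0762), Arhgdib (0.0811) and Batf3 (0.101) already did not pass. The loss of these calls therefore cannot be credited to the block. S100a8 and Pla2r1 did not pass without knockout 5 alone. Without the trend in limma, Cebpa (adjusted p = 0.0602), Itga4 (0.0514), Arhgdib (0.0747), Calr (0.0522), Grn (0.096) and Batf3 (0.107) did not pass. Arhgdib and Batf3 also did not pass without a filter (0.0703 and 0.0787) or after quantile normalization (0.0686 and 0.0846), nor Itga4 (0.107) or Grn (0.0579) without wild type 2 and knockout 4 together. Of 217 values of the markers over alternatives, 195 kept their direction and side of the threshold, as did 653 of 742 of the other 34 named genes. Raw depth is unknown, and low genes such as Itgam have wide intervals.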
